A study of Mus musculus with 15 samples.

Results

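Mouse fibroblasts that take on the features of kidney tubule epithelium after forced expression of transcription factors are called induced renal tubular epithelial cells (iRECs), and the comparison described here sets bioprinted 3D cultures of these cells against the same cells on plates. It covers the 14091 genes whose base mean was at least 10 among the 27179 genes of the authors' deposited table for printed cultures over 2D (51.8%). The base mean is the average of size-factor-normalised read counts over the 6 libraries of that table. The 5 genes just inside this limit had base means of 10.01 to 10.04, and the 5 just outside it 9.95 to 9.99.

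In the Printed group (3 libraries) an inkjet bioprinter dispensed iRECs in fibrin, the polymer of blood clots, and collagen I, a fibrillar collagen, and growth was guided. Gels of collagen I (Collagen), fibrin (Fibrin) and Matrigel, a basement membrane extract, held iRECs that were pipetted by hand and assembled by themselves (3 libraries each). In the 2D group (3 libraries) iRECs were seeded by hand on plates. All 5 groups grew in Renal Epithelial Growth Medium until day 7, and at passages 35, 48 and 53 all were set up side by side from 1 pool of cells of 1 line. The replicates are therefore cultures of 1 line at different passages and not animals, with 1 library per group and passage. The p-values set a change against the variation between such cultures as the authors' fit modelled it. Whether the authors' fit first removed differences between passages is not stated in the sources used here. Printed cultures differed from 2D in the matrix, the third dimension, the dispensing and the guidance of growth at the same time, and these cannot be told apart. The promoter that drove the reprogramming factors is not given in the sources used here.

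Several regulatory programmes recur in what follows. Cells deep in a tissue or gel receive oxygen by diffusion, and when oxygen runs low the hypoxia-inducible factors (HIF) bind DNA at a short core motif and switch on glycolysis, mitophagy and angiogenic genes. SREBP2 is activated when sterol is low and raises cholesterol synthesis, while the liver X receptors respond to oxidised sterols and raise the exporters Abcg1 and Abca1. E2F factors open S phase, and NRF2 answers electrophiles and oxidants. Differentiated proximal tubule cells depend mainly on mitochondrial oxidation of fatty acids and make glucose rather than consume it, whereas injured or dividing tubule cells turn to glycolysis and take up keratins such as Krt19 and Krt20.

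For each gene the authors' deposited table holds 1 mean level and 1 fold change. Values of single libraries were not analysed here, and the spread between replicates enters only through the standard error. The levels given below for each group, in normalised reads, are those that the base mean and the fold change imply. The authors' fit shrank fold changes towards 0, so these levels understate the difference of strongly shrunken genes. The numbers after ± are the authors' standard errors on the log2 scale, with 3 libraries in each group, and a gene is said to have risen or fallen where the authors' adjusted p lay under 0.05. The median standard error was 0.22 where the base mean was at least 100. Fewer cells of a type and less RNA per cell cannot be told apart in these bulk libraries.

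Base means summed to 45.4 in units of 1e6 normalised reads, and the 10 highest genes took 4.44% of that sum. Of 12 tubule epithelium markers 11 had a base mean of at least 10, up to 64782 for Cdh16, the kidney cadherin, and their summed level was 192432 in Printed against 168963 in 2D, with none passing the test. The phosphate transporter Slc34a1, a marker of mature proximal tubule, had a base mean of only 2.70. Of 8 fibroblast markers 3 reached a base mean of 10, Vim had 6184 and Col1a2 was at 0, and none passed. Of the reprogramming factors none passed in the authors' deposited table: Emx2 was at log2 0.35 ± 0.20, Hnf4a at 0.23 ± 0.20 and Pax8 at 0.06 ± 0.19. Introduced and endogenous transcripts of these factors were counted together. The 5 genes with the highest base means, COX1, Eef1a1, Eef2, Clu and Gapdh, lay between log2 -0.26 (Clu) and 0.63 (Gapdh) in the authors' deposited table, and none passed.

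More genes were higher than lower in Printed. Of the 14091 genes 481 passed (3.41%), of which 379 were higher in Printed (2.69%) and 102 lower (0.724%). The risen genes had a median log2 fold change of 0.97 and the fallen genes of -1.02, beside a median of 0.01 over all 14091 genes, of which 7267 had a positive and 6824 a negative value. A change of at least 1 on the log2 scale was seen for 173 of the risen and 55 of the fallen genes, and at least 2 for 9 risen and 0 fallen genes. The risen genes together took 5.60% of all normalised reads in Printed against 3.18% in 2D, and the fallen genes 0.207% in Printed against 0.411% in 2D. When each Wald statistic was divided by the spread of the middle part of all of them, 1.15, 235 genes passed, 198 of them higher and 37 lower. This stricter calling is referred to below as the empirical null.

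**Figure D1:**
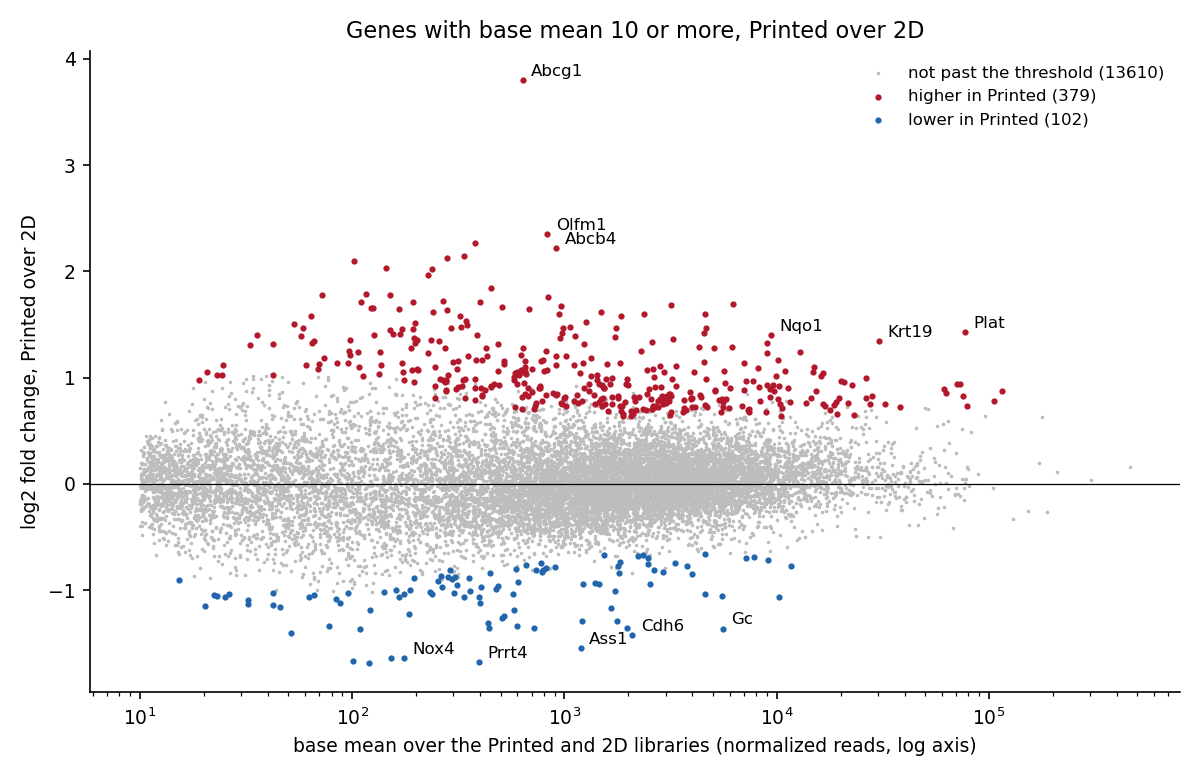
Log2 fold change of Printed over 2D (vertical axis) against base mean in normalised reads (horizontal log axis) for the 14091 genes, 1 point per gene, with the 379 risen and 102 fallen genes coloured. Risen points outnumber fallen ones, and Abcg1 at 3.80 stands above all others.

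Called genes also differed in make-up, given here as a description with no test. Risen genes had a median base mean of 1301, fallen genes of 443 and all genes of 1239. The median gene span in RefSeq was 21009 bases for risen, 35070 for fallen and 21685 for all genes. Long non-coding genes were 1.06% of the risen, 5.94% of the fallen and 4.15% of all located genes. The 250 bases before the start in the RefSeq promoter table had a median GC content of 58.8% for risen, 55.6% for fallen and 60.0% for all genes with a promoter sequence. By chromosome, the share of risen genes ran between 1.94% on chromosome 1 and 4.54% on chromosome 5, and none of the 14 mitochondrial genes passed.

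The largest increase was in a sterol exporter. Abcg1 (gene 11307, chromosome 17, 31057694 to 31117984, GRCm38), which hands cellular cholesterol to lipoproteins, had 1187 normalised reads in Printed against 85.1 in 2D, a 13.95-fold difference. In the authors' deposited table this was log2 3.80 ± 0.26 with adjusted p = 1.57e-42, and the ratio of implied levels was 4.79 on the log2 scale. That ratio does not use the fold change of Printed: the 2D level is the median of those that the other 3 deposited tables imply, and the Printed level is what then remains of the base mean. Abca1, the partner exporter that loads apolipoprotein A-I, also rose, with 3582 normalised reads in Printed against 2057 in 2D and log2 0.80 ± 0.21 (adjusted p = 0.0084) in the authors' deposited table. It was named after its values were seen.

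The genes behind it had roles of several kinds. Olfm1 (gene 56177, chromosome 2, 28193093 to 28230736, GRCm38), a secreted olfactomedin glycoprotein, had 1391 normalised reads in Printed against 272 in 2D, and the authors' deposited table gave log2 2.36 ± 0.24 (adjusted p = 3.46e-18). Fa2h, which hydroxylates the fatty acids of sphingolipids, had 627 in Printed against 131 in 2D, log2 2.26 ± 0.30 in the authors' deposited table. Abcb4, the phosphatidylcholine floppase of bile canaliculi, had 1506 in Printed against 324 in 2D, log2 2.22 ± 0.27 there. Both of these lipid genes were thus more than 4-fold higher in Printed. Eps8l3, of a family that regulates actin at the cell edge, had 456 in Printed against 104 in 2D, log2 2.13 ± 0.27 in the authors' deposited table. Cdh13, a cadherin held to the membrane by a lipid anchor, had 383 in Printed against 93.9 in 2D, log2 2.03 ± 0.29 in that table of the authors. Muc5ac, a gel-forming mucin of airway and stomach, had 706 in Printed against 196 in 2D, log2 1.85 ± 0.24 in the authors' deposited table.

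The remaining members of the highest 12, all with a base mean of at least 100, were Icos, Sprr1b, Rgs9, Slc6a12 and Cyp24a1. Slc6a12, the betaine and GABA transporter that loads kidney cells with osmolyte, had 364 normalised reads in Printed against 93.1 in 2D, log2 1.97 ± 0.32 in the authors' deposited table, and its ratio of implied levels was 3.76 on the log2 scale. Cyp24a1, which inactivates vitamin D, had 181 in Printed against 52.4 in 2D, log2 1.78 ± 0.32 in the authors' deposited table. Rgs9, a regulator of G protein signalling, had 233 in Printed against 56.9 in 2D, log2 2.04 ± 0.31 in the authors' deposited table. Icos and Sprr1b are described with the immune and squamous genes below. The 2 measures also lay apart for others of this group: the ratio of implied levels was 3.14 for Fa2h, 2.82 for Icos, 3.63 for Sprr1b, 2.84 for Rgs9, 2.68 for Cdh13 and 2.55 for Cyp24a1 on the log2 scale.

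The lowest genes also had roles of several kinds. Ass1 (gene 11898, chromosome 2, 31470270 to 31520670, GRCm38), which makes argininosuccinate on the way to arginine in the proximal tubule, had 611 normalised reads in Printed against 1782 in 2D, log2 -1.55 ± 0.23 (adjusted p = 2.62e-08) in the authors' deposited table. Gc, the plasma carrier of vitamin D, had 3136 in Printed against 8055 in 2D, log2 -1.36 ± 0.21 (adjusted p = 2.63e-08) there. Cdh6, a cadherin of the developing proximal tubule, had 1137 in Printed against 3042 in 2D, log2 -1.42 ± 0.24 in the authors' deposited table. Gc and Cdh6 were thus the most abundant of the 12 lowest genes. Nox4 (gene 50490, chromosome 7, 87244430 to 87398710, GRCm38), the hydrogen peroxide-forming oxidase first described in kidney, had 85.0 in Printed against 265 in 2D, log2 -1.64 ± 0.32 in the authors' deposited table.

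Oas1e, of the oligoadenylate synthetase family, was lowest of all at log2 -1.69 ± 0.30 in the authors' deposited table, with 56.8 normalised reads in Printed against 183 in 2D. The family has near-identical copies, so its reads are uncertain. The transmembrane protein gene Prrt4 was at -1.67 ± 0.29, the angiopoietin Angpt4 at -1.66 ± 0.31 and the plexin-domain gene Plxdc1 at -1.64 ± 0.29 in the authors' deposited table. The other members were Lcp1, the actin-bundling plastin, at -1.36 ± 0.30, Map3k7cl at -1.36 ± 0.27, 4930539E08Rik at -1.36 ± 0.32 and the monooxygenase Moxd1 at -1.35 ± 0.28 in the authors' deposited table. All 24 of these genes passed under the empirical null. The 12 lowest genes also had negative values over 2D in Collagen, Fibrin and Matrigel, as Prrt4 at -2.66, -1.58 and -2.90 in that order. Values of the 12 highest genes in the gels varied. In the same order Icos was at 3.06, 2.07 and 1.77, and Slc6a12 at -0.50, 0.19 and -0.85, in the authors' deposited tables.

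**Figure D2:**
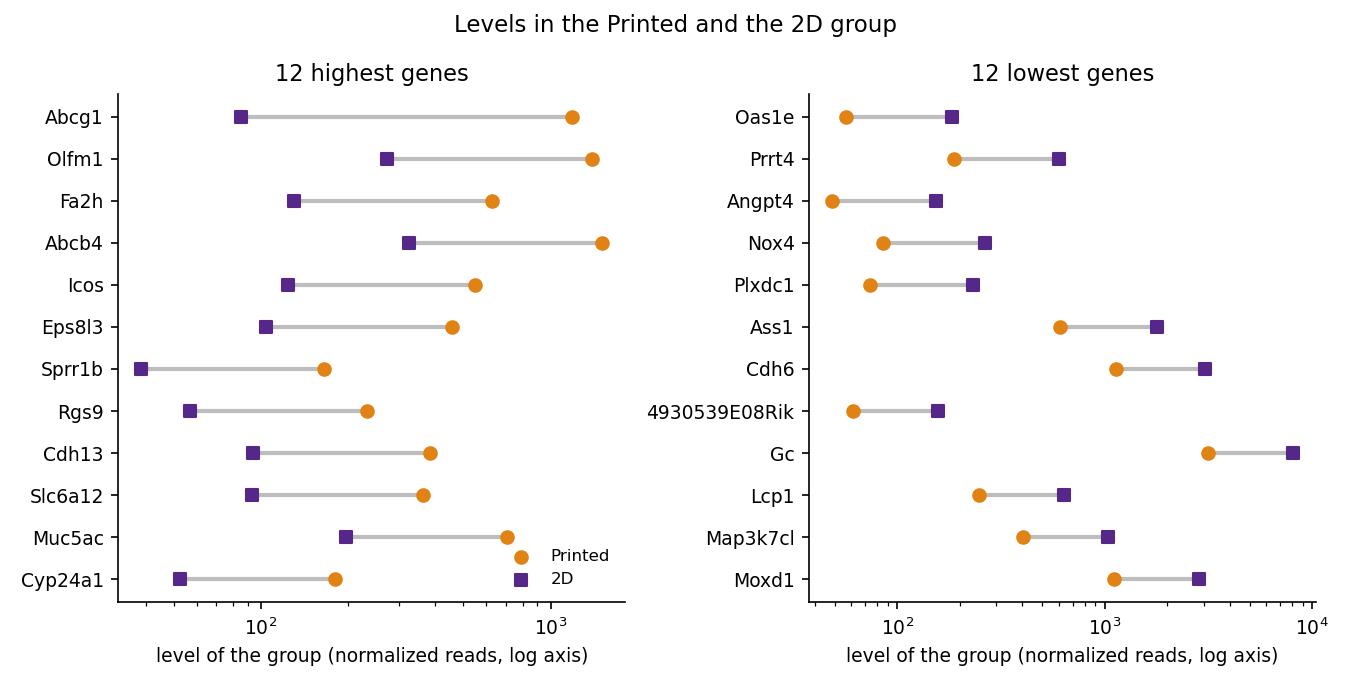
Implied levels in normalised reads (horizontal log axis) of the 12 highest and 12 lowest genes whose base mean was at least 100, with circles for Printed and squares for 2D. Abcg1 has the widest gap, 1187 in Printed against 85.1 in 2D, and among the lowest genes Gc is the most abundant, 3136 in Printed against 8055 in 2D.

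Members of 49 gene lists were counted next, beside the 2.69% risen and 0.724% fallen among all 14091 genes and their median of 0.01. The lists held 158 of the 481 called genes. In 9 lists no member passed, in 23 members passed upwards alone, in 5 downwards alone and in 12 in both directions. Glycolysis, S phase, keratin, cholesterol, mitosis and hypoxia lists had the largest shares of risen members among lists with at least 15 members. The lists and their members were chosen with earlier results of these data known, so these shares are a description only.

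**Figure D3:**
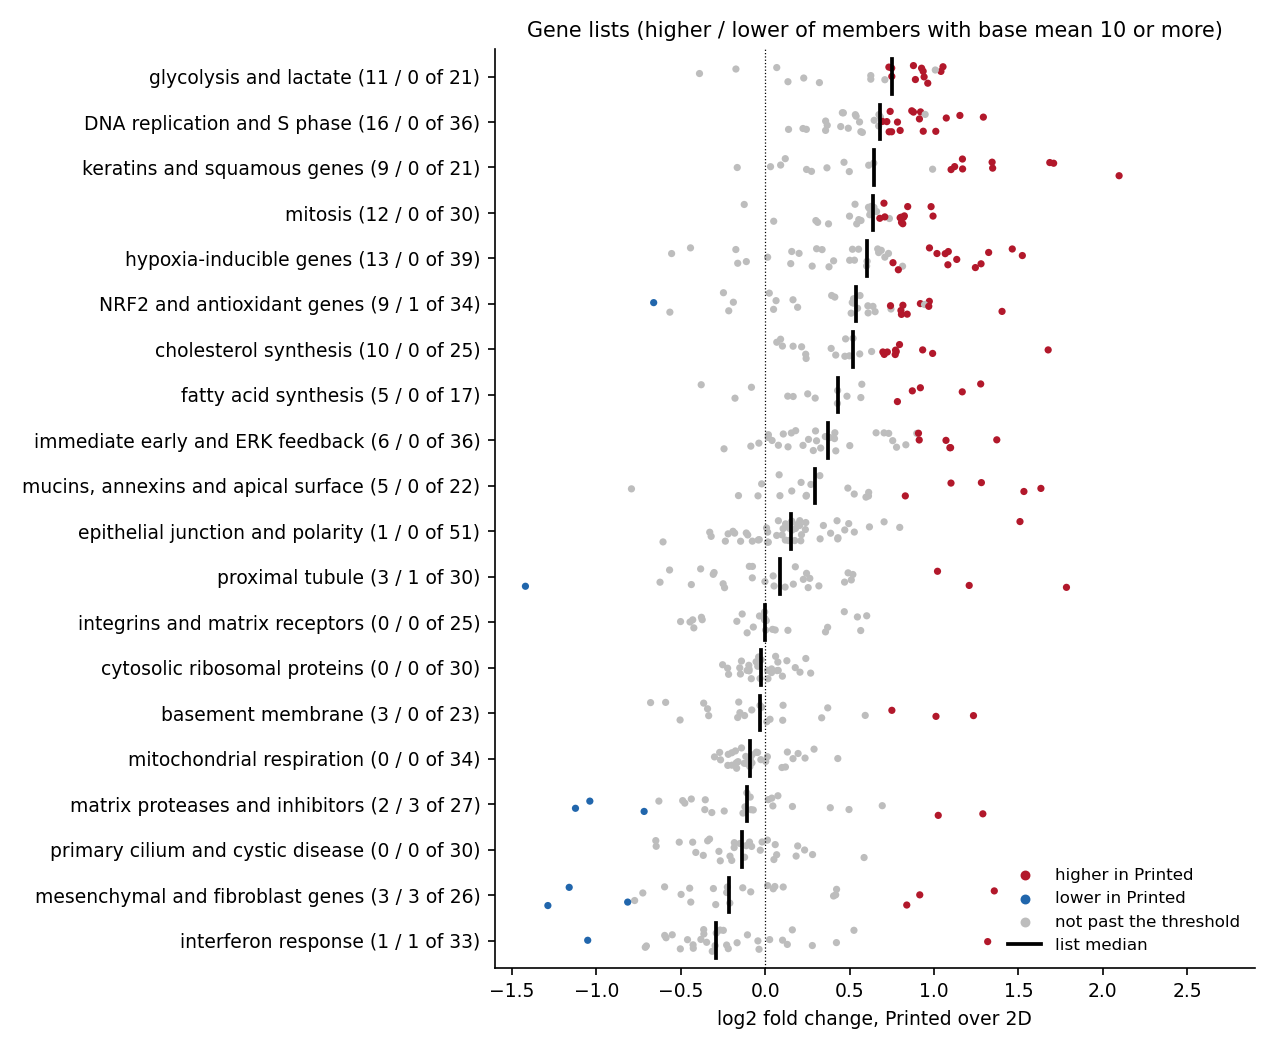
Log2 fold changes of Printed over 2D (horizontal axis) for the members of 20 gene lists (rows), 1 point per gene whose base mean was at least 10, called genes coloured and list medians as bars. The median bars of the glycolysis (0.75), replication (0.68), mitosis (0.64) and hypoxia (0.60) lists lie right of 0, and that of mitochondrial respiration (-0.09) lies close to it.

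Of the hypoxia-inducible genes a part rose in Printed and none fell. The promoters of the 2 risen list genes with the largest change that held the HIF core motif ACGTG are printed here because this list sets printed cultures apart from the gels below. Each gives the 250 bases before the start from RefSeq (GRCm38.p6), 5′ to 3′ on the gene's strand, with the motif or its reverse complement in capitals. P4ha2 lies on the plus strand, chr11:54100674-54100923, with the motif 78 bases before the start. Fam162a lies on the minus strand, chr16:36071562-36071811, with it 81 bases before the start.

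P4ha2: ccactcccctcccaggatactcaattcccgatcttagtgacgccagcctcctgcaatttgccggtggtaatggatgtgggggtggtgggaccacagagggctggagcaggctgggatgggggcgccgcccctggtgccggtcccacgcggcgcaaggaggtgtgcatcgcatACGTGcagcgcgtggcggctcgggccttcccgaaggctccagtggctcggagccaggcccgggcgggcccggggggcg

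Fam162a: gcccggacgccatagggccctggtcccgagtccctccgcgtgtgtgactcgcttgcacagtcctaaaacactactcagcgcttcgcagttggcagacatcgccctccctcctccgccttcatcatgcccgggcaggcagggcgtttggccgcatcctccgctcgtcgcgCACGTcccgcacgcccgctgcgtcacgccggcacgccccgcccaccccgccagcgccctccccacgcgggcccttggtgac

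The motif, on either strand, was in 16 of 30 list members with a promoter sequence (53.3%) and in 6 of 11 risen ones, against 21.6% of the promoters of 10806 genes and 20.5% of those of all risen genes. A match describes these letters only. The windows of the RefSeq table end at the annotated gene start for 5742 of 10805 located genes and at another start for the others (46.9%). With windows that end at the gene start alone, an alternative added after the data were seen, the motif was in 10 of 18 list members (55.6%), against 22.2% of all such promoters.

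Of 39 hypoxia-inducible genes 13 rose and 0 fell, with a median of 0.60. P4ha2 (gene 18452, chromosome 11, 54100924 to 54131668, GRCm38), a subunit of the prolyl hydroxylase that lets collagen fold, had 2566 normalised reads in Printed against 930.2 in 2D, log2 1.46 ± 0.30 (adjusted p = 0.000141) in the authors' deposited table. Ak4, a mitochondrial adenylate kinase, had 1880.2 in Printed against 654 in 2D, log2 1.52 ± 0.27 in the authors' deposited table. Fam162a, a mitochondrial protein linked to hypoxic cell death, had 12917 in Printed against 5159.5 in 2D, log2 1.32 ± 0.25 there. Each of these was at least 2.5-fold higher in Printed. Gbe1, the glycogen branching enzyme, had 2517 in Printed against 1146 in 2D, log2 1.14 ± 0.24 in the authors' deposited table. Pdk1, a kinase that inhibits pyruvate dehydrogenase, had 7655 in Printed against 3654 in 2D, log2 1.07 ± 0.29 there.

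The other risen members were the mitophagy receptor Bnip3, the oxygen sensor Egln3, Hif3a, the oxidoreductase Ero1l, Higd1a, Ndrg1, the hormone Stc1 and Selenbp1, between 0.76 (Ndrg1) and 1.28 (Stc1) in the authors' deposited table. Some classical targets did not pass. Vegfa, the angiogenic factor, was at 0.67 ± 0.23 (adjusted p = 0.081), Adm, adrenomedullin, at 0.53 ± 0.31 and the carbonic anhydrase Car9 at -0.11 ± 0.32 in the authors' deposited table. These 3 were named after their values were seen. The transcript of Hif1a itself was at 0.34 ± 0.24. Of the 13, 7 passed under the empirical null, and Pdk1 no longer did.

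Genes of most steps of glycolysis rose. Of 21 genes of glycolysis and lactate 11 rose and 0 fell, with a median of 0.75: the glucose transporter Slc2a1, Hk1, Gpi1, Pfkl, Pfkp, Aldoa, Pgk1, Pgam1, Eno1, Pkm and Ldha. Pfkp, the platelet-type phosphofructokinase of the committed step, had 22244 normalised reads in Printed against 10808 in 2D, log2 1.04 ± 0.20 (adjusted p = 6.47e-05) in the authors' deposited table. The liver-type enzyme Pfkl had 19925 in Printed against 9599 in 2D, log2 1.05 ± 0.23 there. Aldolase A (Aldoa) had 95998 in Printed against 49978 in 2D, log2 0.94 ± 0.22 in the authors' deposited table. These are among the more abundant transcripts of the cells. Pgam1, the phosphoglycerate mutase, was at 0.93 ± 0.21, and the other 7 lay between 0.73 and 0.96 in the authors' deposited table. The motif ACGTG was in 8 of 20 promoters of this list (40.0%).

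In oxidative pathways almost no gene passed. Of 34 genes of mitochondrial respiration none passed, with a median of -0.09, and of 16 of the tricarboxylic acid cycle none passed, with a median of -0.05. Of 22 genes of fatty acid oxidation 0 rose and 1 fell, Acot2, an acyl-CoA thioesterase of mitochondria, at -0.77 ± 0.23 in the authors' deposited table, a call lost under the empirical null. The ATP synthase subunit Atp5b was at -0.12 ± 0.19 there. Of 6 gluconeogenesis genes 1 rose, Pck1, the rate-setting carboxykinase, with 852 normalised reads in Printed against 439.7 in 2D and log2 0.95 ± 0.24 in the authors' deposited table.

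The gels that held no printed cells gave other values for the same genes. Over 2D, the median of the hypoxia list was 0.60 in Printed, -0.76 in Collagen, -0.46 in Fibrin and -0.45 in Matrigel, and that of glycolysis was 0.75, -0.33, -0.24 and -0.17 in the same order. All 4 comparisons share the 2D libraries. Tested as the difference of log2 fold changes, Printed was higher than Collagen for 116 of 13787 genes (0.841%) and lower for 8 (0.058%). Printed was higher than Fibrin for 121 of 13830 genes (0.875%) and lower for 80 (0.578%). Of the 39 hypoxia genes 21 were higher in Printed than in Collagen and 18 higher than in Fibrin, and of 20 glycolysis genes tested 6 and 8 were. None of either list was lower in Printed.

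P4ha2 had the largest difference from Collagen, log2 1.46 ± 0.30 in Printed against -3.94 ± 0.36 in Collagen, -1.78 ± 0.29 in Fibrin and -0.45 ± 0.26 in Matrigel, each over 2D in the authors' deposited tables. The difference was 5.40 from Collagen (adjusted p = 3.5e-27) and 3.24 from Fibrin (adjusted p = 1.59e-11). Pdk1 was at 1.07 in Printed, -2.90 in Collagen, -1.57 in Fibrin and -0.47 in Matrigel in the authors' deposited tables. Vegfa, which did not pass over 2D in Printed, was 1.43 above Collagen (adjusted p = 0.0012) and 1.46 above Fibrin (adjusted p = 0.00051). Adm was 2.85 above Collagen and 2.27 above Fibrin. The gap to the gels was thus wider than the gap to 2D for each of these genes, because their values over 2D were negative in both gels.

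**Figure D4:**
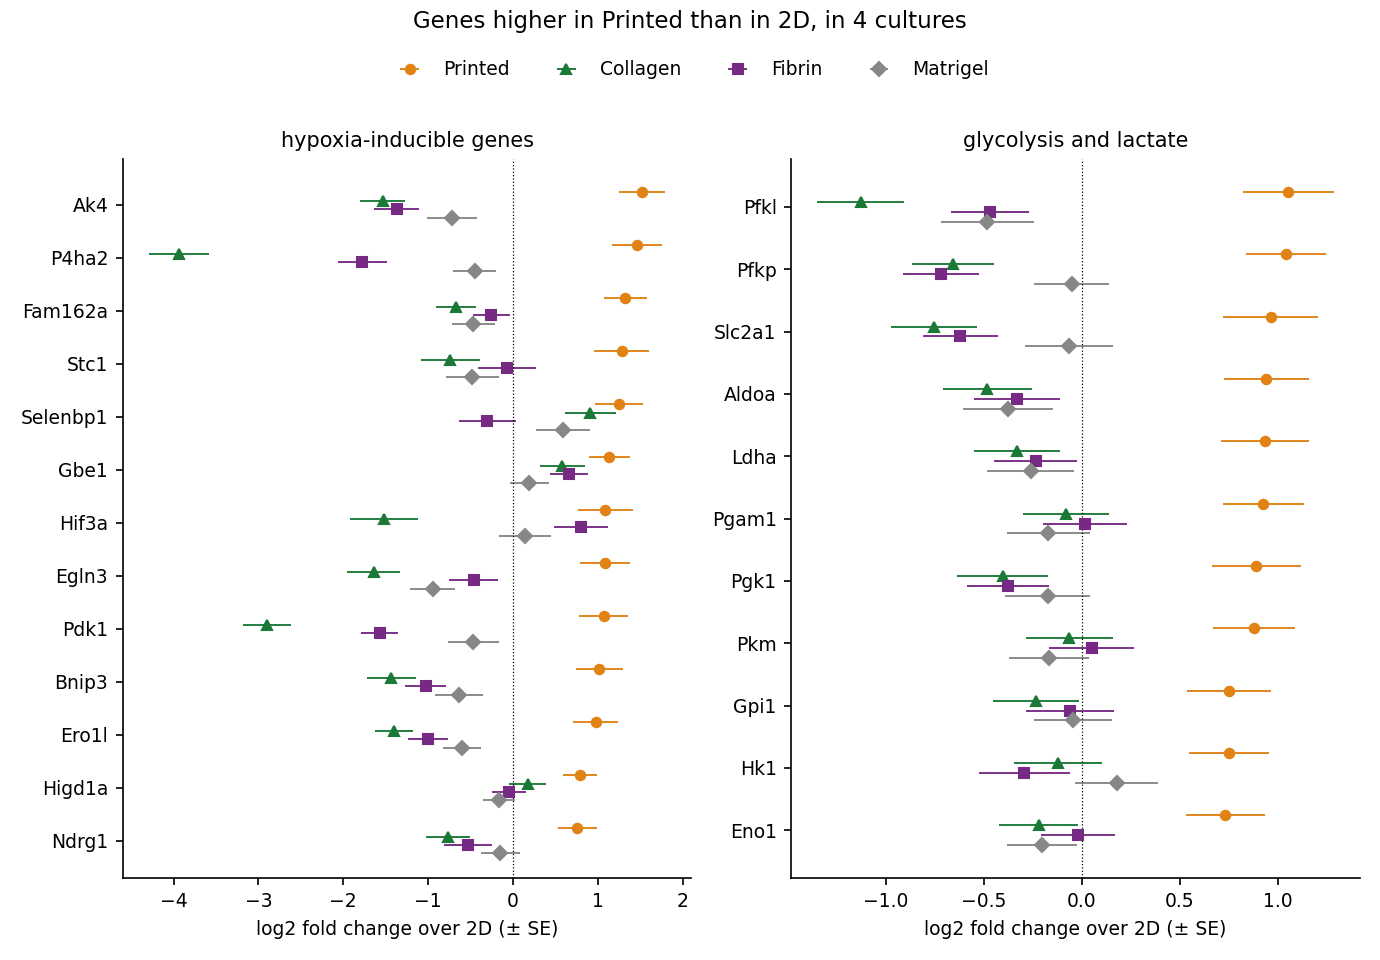
Log2 fold change over 2D (± the authors' standard error) of the 13 risen hypoxia genes and 11 risen glycolysis genes in Printed, Collagen, Fibrin and Matrigel. All 24 are above 0 in Printed, where they were chosen for having risen, and P4ha2 reaches -3.94 in Collagen.

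Genes of sterol and fatty acid synthesis rose as well. The promoters of 2 risen cholesterol genes with TCACNCC, a core of the sterol regulatory element, are shown in the same way, with that motif in capitals. Hmgcs1 lies on the plus strand, chr13:119690101-119690350, with matches 220 and 137 bases before the start. Msmo1 lies on the minus strand, chr8:64733579-64733828, with 1 match 177 bases before the start.

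Hmgcs1: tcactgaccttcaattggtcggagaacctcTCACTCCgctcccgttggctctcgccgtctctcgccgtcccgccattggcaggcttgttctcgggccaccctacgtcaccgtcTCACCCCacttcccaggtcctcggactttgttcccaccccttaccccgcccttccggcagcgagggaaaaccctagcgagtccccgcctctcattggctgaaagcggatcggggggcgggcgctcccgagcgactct

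Msmo1: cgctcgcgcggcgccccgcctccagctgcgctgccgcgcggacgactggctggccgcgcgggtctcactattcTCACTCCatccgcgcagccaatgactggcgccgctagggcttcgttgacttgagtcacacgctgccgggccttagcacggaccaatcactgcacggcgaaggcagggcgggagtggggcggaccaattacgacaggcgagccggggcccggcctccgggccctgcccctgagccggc

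The motif was in 4 of 17 promoters of the list (23.5%), against 14.2% of the promoters of all genes. With windows that end at the gene start it was in 4 of 14, against 13.7% of all such promoters. The share over the list thus rests on few promoters.

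Of 25 genes of cholesterol synthesis and uptake 10 rose and 0 fell, all 25 had positive values, and the median was 0.52. Idi1, the isomerase of isoprenoid units, had 1463 normalised reads in Printed against 458 in 2D, log2 1.68 ± 0.24 (adjusted p = 3.81e-09) in the authors' deposited table. Insig1, which holds SREBP in the endoplasmic reticulum, had 6188 in Printed against 3111 in 2D, log2 0.99 ± 0.23 there. Hmgcs1, which makes HMG-CoA, had 12546 in Printed against 6571 in 2D, log2 0.93 ± 0.20 in the authors' deposited table. Idi1 had the largest value of the list. The sterol carrier Stard4 was at 0.78 ± 0.20 in the authors' deposited table. Fdft1, Msmo1 and Nsdhl were among the other risen members. Under the empirical null 4 of the 10 passed, and Msmo1 lost its call. The list median over 2D was 0.80 in Collagen, 0.69 in Fibrin and 0.50 in Matrigel, and none of the 25 differed between Printed and either gel at adjusted p under 0.05.

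Of 17 fatty acid synthesis genes 5 rose and 0 fell, with a median of 0.43. Mlxipl (ChREBP), the sugar-sensing factor of lipogenesis, had 7189 normalised reads in Printed against 2967 in 2D, log2 1.28 ± 0.20 (adjusted p = 4.86e-08) in the authors' deposited table. Acacb, the mitochondrial acetyl-CoA carboxylase, had 1101 in Printed against 490.2 in 2D, log2 1.17 ± 0.25 there. The desaturase Scd1 had 19746 in Printed against 10789 in 2D, log2 0.87 ± 0.22 in the authors' deposited table. Scd2 and the malic enzyme Me1 completed the 5. Acacb was also 1.4998 above Collagen (adjusted p = 0.0068) and 1.53 above Fibrin (adjusted p = 0.0036).

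Many genes of cell division rose and none of both lists fell. The promoter of the risen replication gene Mcm6, with an E2F core (TTGGCGC or TTCCCGC on either strand), follows with the matches in capitals. The window for Cdc6, the gene of larger change, belongs to a start 442 bases inside the annotated gene and is not printed. Mcm6 lies on the minus strand, chr1:128359706-128359955, with matches 109 and 46 bases before the start.

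Mcm6: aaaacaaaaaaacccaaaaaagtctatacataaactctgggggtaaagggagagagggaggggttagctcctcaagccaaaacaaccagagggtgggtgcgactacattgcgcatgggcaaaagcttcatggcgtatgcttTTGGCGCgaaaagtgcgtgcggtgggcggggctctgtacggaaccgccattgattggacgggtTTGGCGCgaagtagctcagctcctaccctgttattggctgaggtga

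An E2F core was in 12 of 30 promoters of the replication list (40.0%) and in 6 of 13 of its risen members, against 10.04% of the promoters of all genes. With windows that end at the gene start it was in 7 of 22 promoters of the list (31.8%), against 9.87% of all such promoters.

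In DNA replication and S phase 16 of 36 genes rose and 0 fell, all 36 had positive values, and the median was 0.68. Rrm2, the regulated subunit of ribonucleotide reductase, had 6138 normalised reads in Printed against 2506 in 2D, log2 1.29 ± 0.20 (adjusted p = 4.81e-08) in the authors' deposited table. Cdc6, which loads the replicative helicase, had 899.6 in Printed against 404 in 2D, log2 1.15 ± 0.27 there. Thymidine kinase Tk1 had 3307 in Printed against 1572 in 2D, log2 1.07 ± 0.21 in the authors' deposited table. The helicase subunit Mcm4 followed at 0.92 ± 0.20, and the remaining 12, among them Pcna, Mcm5, Mcm6, Ccne1 and Uhrf1, lay between 0.69 and 1.01 there. Of 30 mitosis genes 12 rose and 0 fell, with a median of 0.64. Aurkb, the kinase of the chromosomal passenger complex, had 2228 in Printed against 1118 in 2D, log2 0.99 ± 0.21 in the authors' deposited table. The checkpoint gene Mad2l1 was at 0.98 ± 0.20, the cyclin-dependent kinase Cdk1 at 0.84 ± 0.20 and Plk1 at 0.82 ± 0.20 there.

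Mki67, the common proliferation marker, was at 0.50 ± 0.30 (adjusted p = 0.59) in the authors' deposited table and did not pass. It was named after its value was seen. Under the empirical null 7 of the 16 replication genes and 7 of the 12 mitosis genes passed, and Mcm6 lost its call. Over 2D the replication median was 1.14 in Collagen, 1.04 in Fibrin and 0.63 in Matrigel, and the mitosis median 1.002, 0.93 and 0.60 in the same order. The median difference of Printed from Collagen was -0.51 for replication and -0.36 for mitosis, beside -0.02 over all genes. From Fibrin it was -0.44 and -0.26, beside -0.01. None of these genes differed singly between Printed and Collagen or Fibrin at adjusted p under 0.05. Of 29 p53 targets and cyclin inhibitors 1 rose, Ccng2, a cyclin of quiescent cells, at 0.82 ± 0.21 in the authors' deposited table. The inhibitor Cdkn1a was at 0.06 ± 0.20 and the cyclin Ccnd1 at 0.69 ± 0.23 (adjusted p = 0.082) there.

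**Figure D5:**
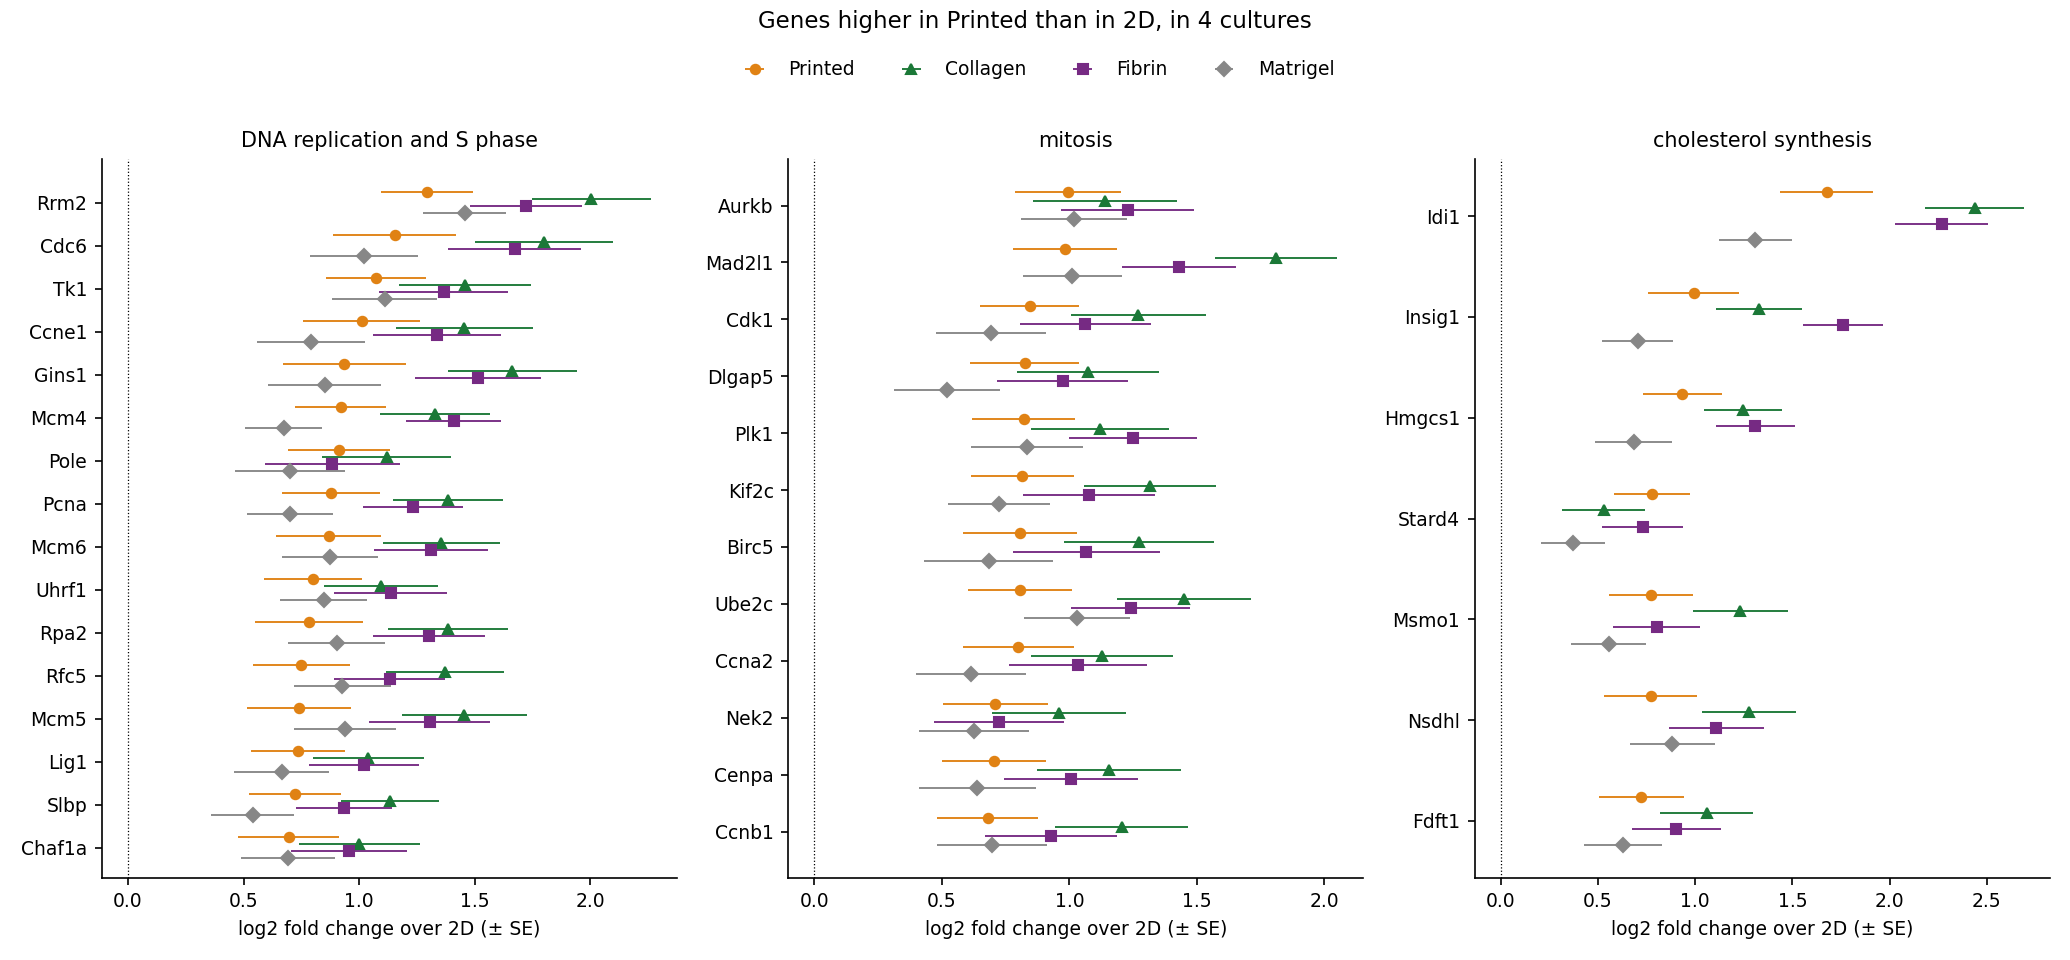
Log2 fold change over 2D (± the authors' standard error) of the risen replication (16) and mitosis (12) genes and of 7 of the 10 risen cholesterol genes in Printed, Collagen, Fibrin and Matrigel. The Printed values lie above 0 by choice of the genes, and values in the 3 gels reach up to 2.44 for Idi1 in Collagen. Over whole lists, medians in Collagen and Fibrin were above those in Printed, for replication 1.14 and 1.04 against 0.68, with 0.63 in Matrigel.

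Keratins and genes of squamous epithelium rose without any fall. Of 21 genes 9 rose, with a median of 0.64. Krt19 (gene 16669, chromosome 11, 100140810 to 100145926, GRCm38), a simple epithelial keratin of injured tubule and collecting duct, had 43561 normalised reads in Printed against 17154 in 2D, log2 1.34 ± 0.20 (adjusted p = 1.08e-08) in the authors' deposited table. Krt5, the basal cell keratin, had 4828 in Printed against 1500.4 in 2D, log2 1.69 ± 0.26 there. Krt20 had 20324 in Printed against 9472 in 2D, log2 1.10 ± 0.20 in the authors' deposited table. These 3 keratins of different epithelia were thus higher in Printed, and Krt17 also rose. Tgm1, the transglutaminase that cross-links the cornified envelope, had 298 in Printed against 91.0 in 2D, log2 1.71 ± 0.30 in the authors' deposited table. Sprr1b, an envelope precursor, had 166 in Printed against 38.7 in 2D, log2 2.10 ± 0.32 there, and Sprr1a, Sprr2h and Scel rose too. The Sprr genes have near-identical neighbours, so reads among them are uncertain.

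The keratins that define simple tubule epithelium did not pass, with Krt18 at 0.12 ± 0.21 and Krt8 at 0.64 ± 0.26 (adjusted p = 0.2) in the authors' deposited table. Krt19 was at -0.14 ± 0.21 in Collagen, -0.42 ± 0.21 in Fibrin and 0.07 ± 0.19 in Matrigel over 2D in the authors' deposited tables, 1.49 below Printed in Collagen (adjusted p = 0.000109) and 1.77 below it in Fibrin (adjusted p = 6.23e-07). For Krt5 the difference did not pass: it was at 2.07 ± 0.25 in Collagen and 1.35 ± 0.24 in Fibrin there, with adjusted p = 0.9 and 1 for the difference. Of the 21 genes 5 were higher and 1, Sprr2h, lower in Printed than in Collagen, and 2 of 20 were higher than in Fibrin.

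Of 22 genes of mucins, annexins and the apical surface 5 rose and 0 fell, with a median of 0.30. The membrane mucin Muc4 had 422 normalised reads in Printed against 136 in 2D, log2 1.63 ± 0.30 in the authors' deposited table. Mesothelin (Msln) had 513 in Printed against 177 in 2D, log2 1.53 ± 0.30 there. Muc20 was at 1.10 ± 0.29, Muc1 at 0.83 ± 0.24 and the epithelial annexin Anxa13 at 1.28 ± 0.32 in the authors' deposited table. Cultures ordered these genes differently: Muc20 was at -2.12 ± 0.37 in Collagen and 2.08 ± 0.31 in Fibrin, and Anxa13 reached 4.45 ± 0.26 in Fibrin, 3.17 above Printed (adjusted p = 4.42e-11). Of 51 junction and polarity genes 1 rose, the claudin Cldn4, with 78.7 in Printed against 27.6 in 2D and log2 1.51 ± 0.32 in the authors' deposited table. Its base mean was only 5.50 over the Collagen and 2D libraries and 5.44 over the Fibrin and 2D libraries. The level of 27.6 in 2D is therefore too high. Cdh16 and Ctnnb1, the most abundant members, were at 0.39 ± 0.19 and 0.02 ± 0.19 there.

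Antioxidant genes rose in part. Of 34 NRF2 and antioxidant genes 9 rose and 1 fell, with a median of 0.54. Nqo1, the quinone reductase, had 13616 normalised reads in Printed against 5148 in 2D, log2 1.40 ± 0.21 (adjusted p = 2.62e-08) in the authors' deposited table. Heme oxygenase Hmox1 had 26497 in Printed against 13502 in 2D, log2 0.97 ± 0.20 there. Catalase (Cat) had 9469 in Printed against 4836 in 2D, log2 0.97 ± 0.20 in the authors' deposited table. Gclc, Gsr, Srxn1, G6pdx, Me1 and Abcc1 were the other risen members. Gpx3, the secreted glutathione peroxidase made by the proximal tubule, fell, with 3568 in Printed against 5637 in 2D and log2 -0.66 ± 0.19 (adjusted p = 0.025) there. The transcript of NRF2 itself, Nfe2l2, was at 0.19 ± 0.19. Of the 9, 5 passed under the empirical null, and Gpx3 did not. Over 2D the list median was 0.74 in Collagen, 0.35 in Fibrin and 0.54 in Matrigel, and Nqo1 was at 2.39, 1.12 and 1.94 in the same order. None of the 34 genes differed between Printed and Collagen or Fibrin at adjusted p under 0.05.

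Of 43 drug metabolism genes 6 rose and 0 fell, with a median of 0.21. The glutathione transferase Gsta4, which clears lipid aldehydes, had 1029 normalised reads in Printed against 329 in 2D, log2 1.64 ± 0.23 in the authors' deposited table. The glucuronosyltransferase Ugt1a7c had 771 in Printed against 243 in 2D, log2 1.67 ± 0.30 there, and lay 1.79 lower than in Fibrin (adjusted p = 0.00051). Abcb1a and Abcb1b, the P-glycoprotein drug pumps, rose by 1.25 and 1.19, and Gsta2 by 1.14 in the authors' deposited table, and Gsta1 also rose. Ugt1a7c, Gsta1, Gsta2 and both Abcb1 genes have close copies, so their reads are uncertain.

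Other stress lists held between 2 and 6 risen genes. Of 44 genes of the unfolded protein and amino acid response 3 rose and 1 fell, with a median of 0.26. The hormone Fgf21 was at 1.40 ± 0.33, the serine synthesis enzyme Psat1 at 0.81 ± 0.20 and Nupr1 at 0.81 ± 0.21, whereas Ddit3 (CHOP), the factor that links endoplasmic reticulum stress to cell death, was at -0.70 ± 0.21 in the authors' deposited table, a call lost under the empirical null. Of 32 heat shock chaperones 2 rose, Hspa4l at 1.05 ± 0.21 and Hsph1 at 0.77 ± 0.20 there. Of 36 immediate early and ERK feedback genes 6 rose and 0 fell, with a median of 0.37. Dusp6, the phosphatase that dampens ERK, had 11121 normalised reads in Printed against 5208 in 2D, log2 1.09 ± 0.20 (adjusted p = 2.01e-05) in the authors' deposited table. Klf2 was at 1.37 ± 0.30, Spry4 at 1.07 ± 0.29, Egr3 at 1.10 ± 0.31 and Dusp4 at 0.91 ± 0.26 there. Of the 6, 2 passed under the empirical null, and Spry4 and Egr3 did not. Of 31 lysosome genes 0 rose and 1 fell, Hexa at -0.69 ± 0.19, lost under the empirical null, and of 30 ribosomal protein genes none passed.

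Tubule identity genes showed few calls in either direction. Of 30 proximal tubule genes 3 rose and 1 fell, with a median of 0.09. Slc4a4, the basolateral bicarbonate exporter, had 1414 normalised reads in Printed against 612 in 2D, log2 1.21 ± 0.23 (adjusted p = 3.41e-05) in the authors' deposited table. Tmem27 (collectrin), which brings amino acid transporters to the brush border, had 822 in Printed against 405 in 2D, log2 1.02 ± 0.29 there, a call lost under the empirical null. Cyp24a1 was the other risen member and Cdh6 the fallen one. The authors' deposited table put the endocytic receptor Lrp2 (megalin) at 0.12 ± 0.20. Among 9 genes of the loop, distal tubule and collecting duct 1 rose and 1 fell: the magnesium channel Trpm6 at 0.83 ± 0.24 and the sodium channel subunit Scnn1g at -1.03 ± 0.32, both calls lost under the empirical null. Scnn1g had a base mean of only 42.2. Of 16 nephron development regulators the coactivator Cited1 rose, 1.216 ± 0.316, and the ligand Jag1 fell, -0.69 ± 0.19, in the authors' deposited table. No member of the 30 cilium and cystic disease genes passed, with a median of -0.14, and Ganab and Hspg2, the most abundant, were at -0.09 ± 0.20 and -0.15 ± 0.19 there.

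Of 27 genes of tubular injury and repair 3 rose, Krt19, Krt20 and Dcdc2a (0.90 ± 0.24 in the authors' deposited table), and Cdh6 fell. Havcr1 (KIM-1), the classical injury receptor, had a base mean of 5706 and was at 0.47 ± 0.27 (adjusted p = 0.56) in the authors' deposited table, while its ratio of implied levels was 2.56 on the log2 scale. An implied log2 ratio over 1 that exceeded the deposited value by more than 1 was found for 18 of 11393 genes that had a base mean of at least 100 and values in the other tables, of which 10 had not passed. The 8 widest gaps were those of Aire (3.91 against 1.41), 2610528A11Rik (3.08 against 0.79), Havcr1, Traf1 (2.44 against 0.44), Ldhd (3.28 against 1.32), Slc6a12, Sprr1b and Pcdh10 (2.25 against 0.71), the second value of each pair from the authors' deposited table. For these genes the size of the change was therefore least well fixed. Over the called genes the ratio of the 2 measures had a median of 1.11.

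Genes of mesenchyme, matrix and clotting went both ways. Of 26 mesenchymal and fibroblast genes 3 rose and 3 fell, with a median of -0.22. Cdh11, the mesenchymal cadherin, had 1032 normalised reads in Printed against 2517 in 2D, log2 -1.29 ± 0.30 in the authors' deposited table. Fibrillin (Fbn1) was at -0.81 ± 0.22 and Col5a2 at -1.16, whereas S100a4 was at 1.36 ± 0.27, Twist2 at 0.84 ± 0.21 and Col6a1 at 0.92 there. Under the empirical null 1 of the 3 fallen genes passed. Of 23 basement membrane genes 3 rose, among them fibulin Fbln1 at 1.01 ± 0.24 and nidogen Nid1 at 0.75 ± 0.22 in the authors' deposited table, Nid1 not under the empirical null. Of 19 collagen processing genes 1 rose, P4ha2, while Serpinh1 and P4hb were at -0.10 ± 0.20 and 0.28 ± 0.22 there. None of 25 integrins and matrix receptors passed, and Itgb1 and Itga3 were at -0.17 ± 0.20 and 0.55 ± 0.23 in the authors' deposited table.

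Of 27 matrix proteases and inhibitors 2 rose and 3 fell. Adamts9, which cleaves versican, had 8722 normalised reads in Printed against 3568 in 2D, log2 1.29 ± 0.25 in the authors' deposited table. The gelatinase Mmp2 was at -1.12 ± 0.31, its membrane activator Mmp14 at -0.72 ± 0.20 and Adam12 at -1.04 ± 0.30 there, and these 3 did not pass under the empirical null. Adam12 had a base mean of only 26.2. Of 21 genes of fibrinolysis and coagulation 3 rose and 1 fell. Tissue plasminogen activator (Plat, gene 18791, chromosome 8, 22757722 to 22782848, GRCm38), the protease that starts the dissolving of fibrin, had 112507 in Printed against 41808 in 2D, log2 1.43 ± 0.21 (adjusted p = 1.08e-08) in the authors' deposited table. The thrombin-binding receptor Thbd had 9621 in Printed against 4378 in 2D, log2 1.14 ± 0.28, and the protein C receptor Procr 3514 in Printed against 1749 in 2D, log2 1.01 ± 0.24, there. Serpine2, an inhibitor of thrombin and of plasminogen activators, was at -0.80 ± 0.24 there and did not pass under the empirical null. Plat was at 0.92 ± 0.21 in Collagen, 0.63 ± 0.23 in Fibrin and 0.90 ± 0.19 in Matrigel, and its difference from Collagen or Fibrin did not pass (adjusted p = 0.8 and 0.33).

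Inflammatory lists held 1 or 2 called genes each. Of 32 cytokine, chemokine and NF-kB genes 2 rose: the alarmin Il33, with 2175 normalised reads in Printed against 995 in 2D and log2 1.13 ± 0.30, and Il1b, with 47.1 in Printed against 19.02 in 2D and log2 1.31 ± 0.32, in the authors' deposited table. Il33 lost its call under the empirical null. Of 20 complement and acute phase genes 1 rose, factor B (Cfb), with 3693 in Printed against 1462 in 2D and log2 1.34 ± 0.26 there. This list had a median of 0.84 in Fibrin over 2D against 0.02 in Printed, and 7 of its 20 genes were lower in Printed than in Fibrin, beside 0.578% of all genes. Of 33 interferon response genes Oasl1 rose, 1.32 ± 0.32, and Ifit1 fell, -1.05 ± 0.31, in the authors' deposited table, with a list median of -0.29. Both were of low abundance, with base means of 42.6 for Oasl1 and 23.1 for Ifit1, and Ifit1 did not pass under the empirical null.

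In the Notch pathway 3 of 17 genes rose and 1 fell: the ligand Dll4 at 1.12 ± 0.30, the ligand Jag2 at 0.92 ± 0.27 and the feedback gene Nrarp at 1.20 ± 0.24, against the ligand Jag1 at -0.69 ± 0.19, in the authors' deposited table. Under the empirical null Nrarp alone of these passed. Of 24 TGF-beta targets 1 fell, the ligand Tgfb2, with 415 normalised reads in Printed against 789.9 in 2D and log2 -0.93 ± 0.25, and of 20 BMP and Id genes 1 rose, the antagonist Nog, at 1.03 ± 0.32, both lost under the empirical null. Nog had a base mean of only 42.2. None of 24 WNT genes passed. Of 30 actin and SRF target genes 2 fell, smooth muscle actin Acta2 at -1.04 ± 0.30 and caldesmon Cald1, with 3013 in Printed against 6165 in 2D and log2 -1.03 ± 0.25, in the authors' deposited table. Of these Cald1 passed under the empirical null, and Acta2 had a base mean of only 22.4. Of 25 YAP/TAZ targets Birc5 rose and Tgfb2 fell, neither under the empirical null. Of 27 amino acid transporters 2 rose, Slc6a12 and the glutamate transporter Slc1a3 (1.33 ± 0.32), and of 15 IGF axis genes 1, Stc1 (1.28 ± 0.32 in the authors' deposited table, with a ratio of implied levels of 2.62).

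Markers of other cell types were read as lists. Of 15 immune markers 4 had a base mean of at least 10, and 3 of these rose. Icos, a costimulatory receptor of T cells, had 547 normalised reads in Printed against 124 in 2D, log2 2.15 ± 0.31 in the authors' deposited table. Cd68, a lysosomal glycoprotein abundant in macrophages, had 1420.3 in Printed against 468 in 2D, log2 1.601 ± 0.225 there. Csf1r, the macrophage growth factor receptor, was at 0.71 ± 0.22 and lost its call under the empirical null. The defining leukocyte genes were at or near 0: Cd3e had a base mean of 0, Ptprc (CD45) of 1.33, Adgre1 of 0.585, Cd79a of 6.97 and Itgam of 8.79. The summed level of the 6 immune marker genes of the marker set was 1439 in Printed against 485 in 2D, nearly all of it Cd68. Of 5 endothelial genes 1 rose, the VEGF receptor Flt1, at 1.42 ± 0.24 in the authors' deposited table, with the endothelial marker set at 115 in Printed against 98.3 in 2D and Kdr at a base mean of 0.666. Most of the endothelial sum was Vwf, with 87.7 in Printed against 72.8 in 2D. None of 4 podocyte genes passed, with Nphs1 at 0 and a summed marker level of 1062 in Printed against 828 in 2D. Most of that sum was Synpo, with 1001 in Printed against 784 in 2D. Of 7 smooth muscle and pericyte genes 1, Acta2, fell, with Rgs5 at 0 and a summed marker level of 1287 in Printed against 939 in 2D. Most of that sum was Notch3, which did not pass, with 1211 in Printed against 846 in 2D. No erythroid gene passed, with both haemoglobin genes of the marker set at 0. Whether a few cells of another type took part in these values was not tested.

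Printed cultures were last set against both gels at the same time. Of 13730 genes tested in both, 70 were higher in Printed than in Collagen and in Fibrin, and 35 of them had also risen over 2D. Only 3 were lower than in both. All these comparisons use the same Printed and 2D libraries, so they are not independent of each other. The 10 of the 70 whose larger adjusted p was smallest were P4ha2, Pdk1, Ak4, P2rx3, Mgarp, Ankrd37, Pgf, Abcg1, Hc and the gene with identifier 100862344, which has no symbol in the files. P2rx3, an ATP-gated ion channel, was at 0.91 ± 0.27 in Printed, -2.50 ± 0.33 in Collagen, -2.55 ± 0.25 in Fibrin and 1.51 ± 0.18 in Matrigel over 2D in the authors' deposited tables. The placental growth factor Pgf had 3957 normalised reads in Printed against 1909 in 2D and was at 1.05 ± 0.20 in Printed, -1.10 ± 0.22 in Collagen, -0.85 ± 0.24 in Fibrin and -0.86 ± 0.17 in Matrigel there. Mgarp, a mitochondrial protein, was at 1.497 ± 0.298 in Printed, -2.68 ± 0.40 in Collagen, -1.38 ± 0.37 in Fibrin and -0.97 ± 0.31 in Matrigel in the authors' deposited tables. These 3 genes therefore had opposite signs in Printed and in both gels. Complement C5 (Hc) did not pass over 2D (0.75 ± 0.32, adjusted p = 0.26) but was 2.73 above Collagen and 3.41 above Fibrin. Its ratio of implied levels over 2D was 1.63 on the log2 scale. P2rx3 did not pass over 2D under the empirical null.

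Abcg1 was at 3.80 ± 0.26 in Printed, 1.08 ± 0.37 in Collagen, 0.73 ± 0.36 in Fibrin and 0.01 ± 0.32 in Matrigel over 2D in the authors' deposited tables, and its difference was 2.72 from Collagen (adjusted p = 1.79e-06) and 3.07 from Fibrin (adjusted p = 5.67e-09). Abca1 was at 0.80 in Printed, -0.70 in Collagen, -0.83 in Fibrin and -1.57 in Matrigel there, 1.502 above Collagen and 1.63 above Fibrin. Both sterol exporters were thus higher in Printed than in either gel.

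The 3 genes lower than in both gels were tubule or adhesion genes. Tmem27 was at 1.02 ± 0.29 in Printed, 2.87 ± 0.23 in Collagen, 3.13 ± 0.23 in Fibrin and 2.24 ± 0.19 in Matrigel over 2D in the authors' deposited tables. The kidney androgen-regulated protein gene Kap was at 0.51 ± 0.31 in Printed, 2.86 ± 0.27 in Collagen, 1.99 ± 0.26 in Fibrin and 3.02 ± 0.26 in Matrigel there. The protocadherin Pcdh10 was at 0.71 ± 0.30 in Printed, 2.92 ± 0.23 in Collagen, 3.13 ± 0.27 in Fibrin and 2.61 ± 0.22 in Matrigel in the authors' deposited tables. Its ratio of implied levels in Printed, 2.25, would give it differences of -0.67 from Collagen and -0.88 from Fibrin, which were not tested, so its place here rests on the deposited value. With that measure the differences of Tmem27 would be -1.64 from Collagen and -1.90 from Fibrin, and those of Kap -2.38 from Collagen and -1.505 from Fibrin. Among base means of at least 100 in all tables, the 5 largest differences below Fibrin were those of Anxa13, Serpina3g, Cebpd, Pcdh10 and Fam20c, the kinase of secreted proteins. Cebpd, a C/EBP factor of the acute phase, was at -0.01 ± 0.29 in Printed and 2.45 ± 0.32 in Fibrin, and the serpin Serpina3g at -0.17 ± 0.32 in Printed and 2.99 ± 0.33 in Fibrin, in the authors' deposited tables. Ostn (osteocrin) was the reverse case, at -1.01 ± 0.32 in Printed and -3.94 ± 0.38 in Fibrin there, with a difference of 2.93 (adjusted p = 2.03e-06).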

How the data were processed

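RNA of iRECs from 3 Printed, 3 Collagen, 3 Fibrin, 3 Matrigel and 3 2D cultures was sequenced. Reads were aligned to mm10 with STAR 2.6.0b-1 after FastQC 0.72 and Trim Galore 0.4.3, counted with featureCounts 1.6.3 and compared with DESeq2 1.22.1, tools that the labels name without their order, per the submitters' processing notes. The sources used here do not give the gene annotation, the strand setting or the terms of the fit (such as passage). In the deposited tables, each base mean is a signal: read counts scaled by size factors by the authors and averaged over the 6 libraries of a table. Each deposited fold change and standard error is a log2 value of a 3D culture over 2D. The deposited Wald statistic is a score, fold change over standard error. For that score the authors deposited a two-sided p-value and its Benjamini-Hochberg adjusted p-value, which was returned here within 6.31e-15. The deposited table for Printed names collagen only, while the labels give fibrin and collagen I.

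The 4 tables hold 0 columns of values per library. Depth per library is therefore unknown, intervals for counting error could not be had, and no fit was repeated. Group levels were computed from base mean and fold change. With signs as deposited, the 2D level implied by the 4 tables had a median SD of 0.00999 (log2), against 0.0942 with the Printed sign turned. To compare 2 cultures, the difference of log2 fold changes was divided by the root of the summed squares of both standard errors, and two-sided normal p-values were adjusted by Benjamini-Hochberg. The spread of the middle part of these statistics was 1.05 for Collagen and 0.931 for Fibrin. The shared 2D libraries enter both standard errors, which by itself makes the standard error of the difference, if anything, too large. The spread for Collagen was still 1.05, and any separate shrinkage of fold changes in each table was not allowed for. With these statistics divided by their spread, 98 genes were higher and 6 lower in Printed than in Collagen. Against Fibrin, 170 were higher and 98 lower. In the empirical null each Wald statistic was divided by the spread of the middle part of all of them. Scripts were tested on simulated data.

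Named genes were the 12 highest and 12 lowest called genes whose base mean was at least 100, the 10 smallest adjusted p-values, up to 4 called members of each list (2 of the most abundant where fewer than 2 were called), the reprogramming factors, the 5 highest base means, the 5 highest and lowest differences from each gel (base means of at least 100 in all tables), up to 10 that differed from both gels, the 8 widest gaps between implied and deposited values, and the genes with printed promoters. A few genes that this rule names are not reported here. Members and lists were chosen with earlier results of these data known. Of the 14091 genes 97.5% were in the RefSeq annotation of GRCm38.p6, which gave coordinates counted from 1. Of these genes 143 had no symbol and 10806 had a promoter sequence. Python 3.11.15, numpy 2.4.6, pandas 2.3.3, scipy 1.17.1 and matplotlib 3.10.9 were used.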

Additional observations from a re-analysis of the deposited data

Results flagged for a closer look

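For 10 genes the change over 2D differed between Printed and each of the gels Collagen and Fibrin, by a test of the difference itself. They were the 10 of these genes whose larger adjusted p was smallest, among base means of at least 10 in the tables compared. Differences are Printed minus gel on the log2 scale, and all comparisons share the Printed and the 2D libraries. P4ha2, a collagen prolyl hydroxylase subunit, differed by 5.40 from Collagen and 3.24 from Fibrin. The mitochondrial genes Mgarp, Pdk1 and Ak4 differed by 4.17, 3.97 and 3.06 from Collagen and by 2.88, 2.64 and 2.89 from Fibrin. Ankrd37 differed by 3.78 from Collagen and 2.29 from Fibrin, although it did not pass over 2D in Printed. There it was at 0.38 ± 0.29 in the authors' deposited table, while its ratio of implied levels was 1.53 on the log2 scale. The growth factor Pgf differed by 2.15 from Collagen and 1.90 from Fibrin. The channel P2rx3 differed by 3.41 from Collagen and 3.46 from Fibrin, the exporter Abcg1 by 2.72 from Collagen and 3.07 from Fibrin, and complement C5 (Hc) by 2.73 from Collagen and 3.41 from Fibrin. The gene with identifier 100862344, which has no symbol in the files, differed by 3.32 from Collagen and 2.81 from Fibrin.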

How the results depend on the processing

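The count of called genes was 481, of which 379 were higher and 102 lower in Printed. With the empirical null it was 235, with 198 higher and 37 lower, and at adjusted p under 0.01 it was 256, with 215 higher and 41 lower. At adjusted p under 0.1 the lower genes numbered 159. The 80 genes lower than in Fibrin were 44 where a base mean of 100 or more was asked for in both tables. With p-values adjusted over every gene that had one, over base means of at least 10, or with the limit raised to 100 or dropped, the count of called genes lay between 434 and 496, and at adjusted p under 0.1 it was 669. Of 128 named genes that had passed, 97 passed with the empirical null, among them all 24 of the highest and lowest genes. Of 98 list counts 27 moved by more than 1.5 times with the empirical null, 12 with a base mean of 100 or more and 3 with the adjustment over every gene with a p-value. Centring on the median of all genes changed no direction or call of the 189 named genes. The ratio of implied levels moved 48 named values by at least their standard error and 124 by less. No called gene among them changed sign under the settings run. Leaving out each replicate and the replicate block were not run. No paired analysis was possible because the tables hold no values per library, although the groups share passages 35, 48 and 53. The spread between single libraries, the depth of each library and the effect of passage could not be read, and Printed differed from 2D in several features of culture at the same time.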

Other observations

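Gene families were also counted by symbol, a choice made after the values were seen, and some of their members belong to the lists above. Counts are given beside 2.69% risen and 0.724% fallen among all genes. Of 12 tubulin genes 5 rose and 0 fell, with a median log2 fold change of 0.72. Tubb4b, a component of mitotic and ciliary microtubules, had 14639 normalised reads in Printed against 7839 in 2D, log2 0.90 ± 0.20 in the authors' deposited table, and Tubb5, Tubb6, Tuba1b and Tuba1c rose with it. Both metallothioneins above the base mean limit rose, the zinc-binding Mt2 at 1.15 ± 0.26 and Mt1 at 0.89 ± 0.22 in the authors' deposited table. Of 33 ATP-binding cassette transporters 6 rose and 0 fell, of 4 Ndrg genes 3 rose and of 8 E2F genes 3 rose (E2f2, E2f7 and E2f8). Of 260 solute carriers 8 rose and 2 fell, close to the share of all genes. Slc5a3, the inositol importer that cells use against osmotic stress, had 3580.2 in Printed against 1184 in 2D, log2 1.596 ± 0.233 in the authors' deposited table. The fallen pair was Slc18a1 and Slc5a6.

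Further genes outside the lists stood out by size or abundance. The transferrin receptor Tfrc, which brings iron into cells, had 9487 normalised reads in Printed against 2934 in 2D, log2 1.69 ± 0.27 in the authors' deposited table. Aldh1a3, which makes retinoic acid, had 232 in Printed against 67.9 in 2D, log2 1.78 ± 0.30 there. Hmga2, an architectural chromatin protein of embryonic cells, had 6842 in Printed against 2467 in 2D, log2 1.47 ± 0.24 in the authors' deposited table. The nuclear long non-coding RNA Malat1 had 96198 in Printed against 54100.2 in 2D, log2 0.83 ± 0.25 there. Over 2D Tfrc was at 1.90 in Collagen, 1.53 in Fibrin and 1.24 in Matrigel in the authors' deposited tables. In the same order Hmga2 was at 1.68, 1.35 and 1.02, and Aldh1a3 at 0.98, 0.94 and -0.22. Angiotensinogen (Agt), the substrate of renin made by the proximal tubule, had 1729.5 in Printed against 3331 in 2D, log2 -0.95 ± 0.26, and it was at 0.58 ± 0.27 in Fibrin over 2D in the authors' deposited tables. Its difference of -1.52 from Fibrin passed (adjusted p = 0.0065).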
